A study of Mus musculus with 24 samples.

Results

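The comparison covers endothelial cells, the cells that line blood vessels, sorted from Shh medulloblastomas of the mouse and from the hindbrain of adult mice. The 8 arrays labelled Shh-medulloblastoma and the 8 labelled adult hindbrain were taken, 16 of the 24 arrays of the series, and the genes were fitted on these arrays alone. The hindbrain mice were wild type. The tumour mice carried Ptch+/- and Ink4c-/- and, where these are germline alleles (the labels name no Cre for them), their vessel cells carried them too. All mice had a mixed strain background, and the labels used here give no age for the tumour mice. The third group, 8 arrays from Wnt medulloblastomas (Ctnnb1 +/Exon3 flox, Trp53 flox/flox and Pik3ca +/flox, each with Blbp-Cre), was used to ask where the Shh vessels stood apart from both others. In that model Cre is driven by Blbp, a gene of glial and neural progenitor cells. In every group tissue was digested with papain and cells were picked with magnetic beads and antibodies to Cd105 and Cd144, which are the products of Eng and Cdh5. The labels call the arrays of a group biological replicates and do not say whether animals were pooled.

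Brain vessels form a barrier: tight junctions seal the gaps between endothelial cells, few caveolae carry material across them, and transporters select what enters and leaves. Wnt signals from neural cells, received through Fzd4 and its partners and passed on by beta-catenin, build and maintain this state. Shh medulloblastoma arises from granule neuron precursors of the cerebellum, which divide in response to Sonic hedgehog. Ptch1 is the receptor that holds that pathway off until the ligand binds, and Ink4c, now named Cdkn2c, encodes an inhibitor of the cyclin D kinases. The question put by the series is how the tissue around a vessel changes the genes its endothelial cells express.

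All values are the deposited log2 values. They ran from 1.73 to 14.01, with array medians between 6.09 and 6.17 over all probe sets. Over the 22180 genes fitted, array medians were 6.61 to 6.72 in hindbrain and 6.65 to 6.80 in Shh arrays. The medians made equal below are those of the genes. A gene under 5.28 is called dim here. This is the 95th percentile of the means of 92 control probe sets, those named ERCC, over the 16 arrays. A difference is the mean of the Shh arrays minus the mean of the hindbrain arrays on the log2 scale, followed by its standard error. The adjusted p is limma's, two-sided, with Benjamini-Hochberg adjustment over 22180 genes, and a gene is called at an adjusted p under 0.05. Groups overlap where the highest array of the lower group exceeds the lowest array of the higher group.

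Of 22180 genes, 4381 were called higher in Shh vessels (19.8%) and 4440 lower (20%), 39.8% in all. Most calls were small, with a median size of 0.46. At least 2-fold rises were called for 924 genes (4.17%) and falls of that size for 634 (2.86%). Groups did not overlap for 1581 higher genes (7.13%) and 1231 lower ones (5.55%). The median difference over all genes was -0.02. The share of calls that were higher was 49.7%, and 33.6% when array medians were made equal, a step that moved the median difference to -0.11. With so many genes called, each list below is read against these shares.

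The arrays carried endothelial RNA in both groups, together with RNA of other cells that differed between them. Of 16 endothelial markers, 1 was called higher and 6 lower, with a median difference of -0.11. Cdh5, the sorted adhesion molecule Cd144, was 12.70 to 12.99 (median 12.81) in hindbrain and 12.63 to 13.03 (median 12.96) in Shh arrays, a difference of 0.069 ± 0.067 (adjusted p = 0.44). The other sort antigen, Eng, differed by -0.12 ± 0.071 (adjusted p = 0.186). The mean of 13 granule neuron precursor markers was 6.34 to 6.57 in hindbrain and 7.36 to 9.14 in Shh arrays, lowest in Shh replicate 3. The mean of 17 microglia markers was 10.04 to 11.06 in hindbrain and 7.51 to 9.70 in Shh arrays. Neither mean overlapped between the groups, so a model that adds either as a covariate shares its variation with the group. Of 22180 genes, 1843 were called higher and 1696 lower with the microglia mean, and 818 and 587 with the precursor mean. Without a covariate the counts were 4381 and 4440. List counts from these fits, given below, are read against this drop over all genes. The median standard error over all genes rose from 0.10 to 0.195 with the microglia mean and 0.259 with the precursor mean. In bulk RNA of sorted cells, fewer cells of a type and less RNA per cell cannot be told apart. The part these cells had in the lists below was not tested beyond these fits, called the precursor fit and the microglia fit. Of the endothelial markers, 1 higher and 0 lower in the precursor fit and 0 and 4 in the microglia fit were called.

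**Figure D1:**
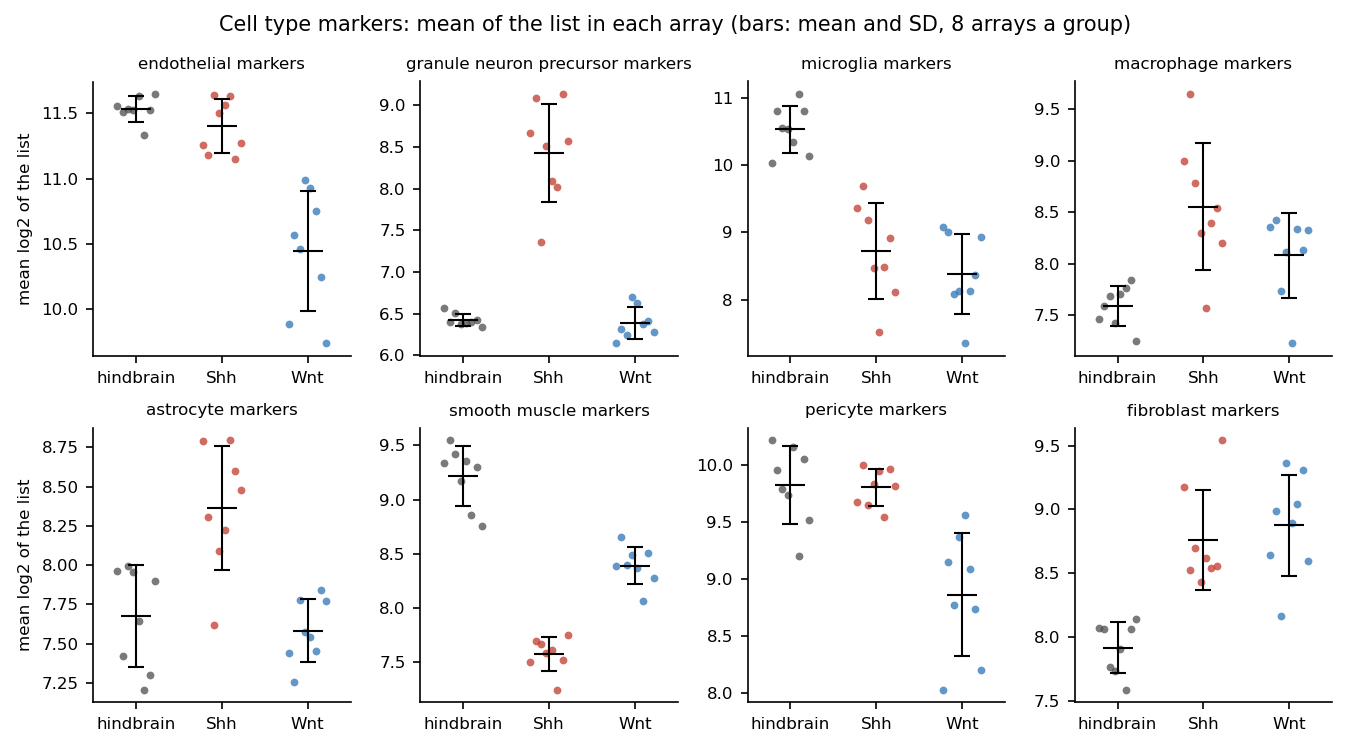
Mean deposited log2 value of 8 cell type marker lists in each array (vertical axis) for the 8 hindbrain, 8 Shh and 8 Wnt arrays; points are arrays and bars the mean and SD. Granule neuron precursor markers lay at 7.36 to 9.14 in Shh arrays and at 6.14 to 6.70 in Wnt arrays, while microglia and smooth muscle markers lay below every hindbrain array in both tumour groups.

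The mutated genes themselves gave no check of the labels. Ptch1 differed by -0.14 ± 0.17 (adjusted p = 0.538), with a 95% interval of -0.49 to 0.21, and Cdkn2c was higher by 0.53 ± 0.16 (adjusted p = 0.0139), at 6.49 to 7.71 (median 7.29) in hindbrain and 7.37 to 8.20 (median 7.81) in Shh arrays. Where the probes lie relative to the deleted sequence is not given in the sources used here. Both genes are also expressed outside the endothelium, in cells that carry the same alleles where these are germline. The adjusted p of Cdkn2c was 0.0625 with the endothelial marker mean as a covariate. Cdkn2c was not called in the microglia fit or the precursor fit either.

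Barrier transporters moved in both directions. Of 23 measured, 7 were higher, 9 lower and 7 not called, with a median of -0.19. Slc16a1, the lactate and ketone carrier Mct1, was 11.57 to 12.48 (median 12.21) in hindbrain and 12.50 to 13.20 (median 12.83) in Shh arrays, with no overlap, a rise of 0.73 ± 0.13 (adjusted p = 0.000206). The receptor Lrp8 rose by 0.63 ± 0.11 (adjusted p = 0.00018) and the amino acid carrier Slc38a5 by 0.97 ± 0.20 (adjusted p = 0.000833). The largest fall was that of Slc6a6, the taurine carrier, which was 12.50 to 12.72 (median 12.60) in hindbrain and 10.31 to 11.40 (median 10.78) in Shh arrays, a difference of -1.85 ± 0.13 (adjusted p = 9.44e-09). The transferrin receptor Tfrc differed by -1.14 ± 0.20 (adjusted p = 0.000169), and the efflux pumps Abcc4 and Abcb1a (P-glycoprotein) by -0.98 ± 0.16 (adjusted p = 9.83e-05) and -0.84 ± 0.18 (adjusted p = 0.00112). Abcb1a ran from 12.29 to 12.63 (median 12.42) in hindbrain arrays and, more widely, from 10.62 to 12.25 (median 11.67) in Shh arrays.

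Carriers often used to mark this barrier differed by small amounts. Slc2a1, the glucose carrier Glut1, was 13.40 to 13.52 (median 13.45) in hindbrain and 12.95 to 13.50 (median 13.30) in Shh arrays, a difference of -0.19 ± 0.073 (adjusted p = 0.0425). That call was lost when any of hindbrain replicates 1, 2, 3, 4, 5, 6 or 7 or Shh replicates 1, 2, 7 or 8 was left out, with differences of -0.23 to -0.15 over all 16 arrays left out in turn. Mfsd2a, a lipid carrier that limits transport by vesicles, rose by 0.30 ± 0.10 (adjusted p = 0.0167); the adjusted p was 0.524 in a fit over all 24 arrays and 0.105 with array medians made equal, where 3 transporters were called higher. Fitted with the microglia mean, 0 transporters were called higher and 11 lower, and with the precursor mean 5 and 1. In the precursor fit the difference of Abcb1a was 0.77 (adjusted p = 0.103).

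Junction genes were lower or not called. Of 13 measured, 0 were higher and 6 lower, with a median of -0.13. Claudin-5, encoded by Cldn5 and the main seal of the barrier, was 11.69 to 12.17 (median 12.06) in hindbrain and 11.70 to 12.39 (median 12.11) in Shh arrays, a difference of 0.019 ± 0.10 with a 95% interval of -0.19 to 0.23. With the endothelial marker mean as a covariate it was 0.17 (adjusted p = 0.0487). Occludin (Ocln) fell by 0.75 ± 0.15 (adjusted p = 0.000792), Marveld2 (tricellulin) by 0.86 ± 0.23 (adjusted p = 0.00572) and the adhesion molecule Jam2 by 0.73 ± 0.12 (adjusted p = 0.000105). Ocln and Jam2 had no overlap between the groups, and Marveld2 had. The precursor covariate left 0 junction genes called lower and the microglia covariate 6.

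Caveolae genes were more often lower than higher. Of 8 measured, 4 fell and 1 rose, with a median of -0.51. Cav1, the coat protein of caveolae, was 8.70 to 9.15 (median 9.03) in hindbrain and 7.43 to 8.30 (median 8.06) in Shh arrays, a difference of -0.98 ± 0.11 (adjusted p = 2.43e-06). Its partner Cav2 differed by -1.03 ± 0.10 (adjusted p = 2.8e-07) and the adaptor Cavin2 by -1.41 ± 0.12 (adjusted p = 7.91e-08). The adaptor Cavin3 alone among the 8 was called higher, by 0.42 ± 0.079 (adjusted p = 0.000364). All 4 of these genes had groups that did not overlap. For the caveolae list the calls were 1 higher and 0 lower in the precursor fit and 0 and 4 in the microglia fit. Cav1 differed by -0.20 (adjusted p = 0.678) in the precursor fit, where Cav2 and Cavin2 were not called either, and Cavin3 was not called in the microglia fit.

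Genes of fenestrated and peripheral vessels were mostly higher: 9 of 12 rose and 2 fell, with a median of 0.91. Plvap, which forms the diaphragms of fenestrae and marks leaky vessels, was 5.72 to 6.74 (median 6.27) in hindbrain and 5.98 to 8.78 (median 7.30) in Shh arrays. The difference was 1.02 ± 0.33 (adjusted p = 0.0212), and the groups overlapped. Once the endothelial marker mean was a covariate it was 0.90 (adjusted p = 0.064), and 5 members of the list were called higher. In the precursor fit it was 0.21 (adjusted p = 0.925), and the list had 0 higher and 1 lower in the precursor fit and 6 and 1 in the microglia fit. In the Wnt arrays Plvap was 9.58 to 11.59 (median 10.34), above every Shh array, and Shh minus Wnt was -3.07 ± 0.40 (adjusted p = 1.27e-05). Esm1, a proteoglycan secreted by sprouting endothelium, rose by 2.80 ± 0.27 (adjusted p = 2.7e-07), and Igfbp5, a binding protein of insulin-like growth factors, by 3.16 ± 0.26 (adjusted p = 4.38e-08), both without overlap. Aqp1, a water channel of peripheral capillaries, was 6.21 to 8.41 (median 6.61) in hindbrain and 6.87 to 10.42 (median 8.14) in Shh arrays, a rise of 1.34 ± 0.44 (adjusted p = 0.021). Against the direction of the list, Tcf15, a transcription factor of heart and muscle capillaries, fell by 2.20 ± 0.14 (adjusted p = 2.3e-09) without overlap, and Cd300lg by 1.08 ± 0.30 (adjusted p = 0.00814). Tcf15 was 7.41 to 8.68 (median 8.11) in hindbrain and 5.60 to 6.09 (median 5.92) in Shh arrays. Esm1, Igfbp5 and Aqp1 were not called in the precursor fit, with differences of 1.78 (adjusted p = 0.146), 2.37 (adjusted p = 0.0526) and 1.93 (adjusted p = 0.387).

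**Figure D2:**
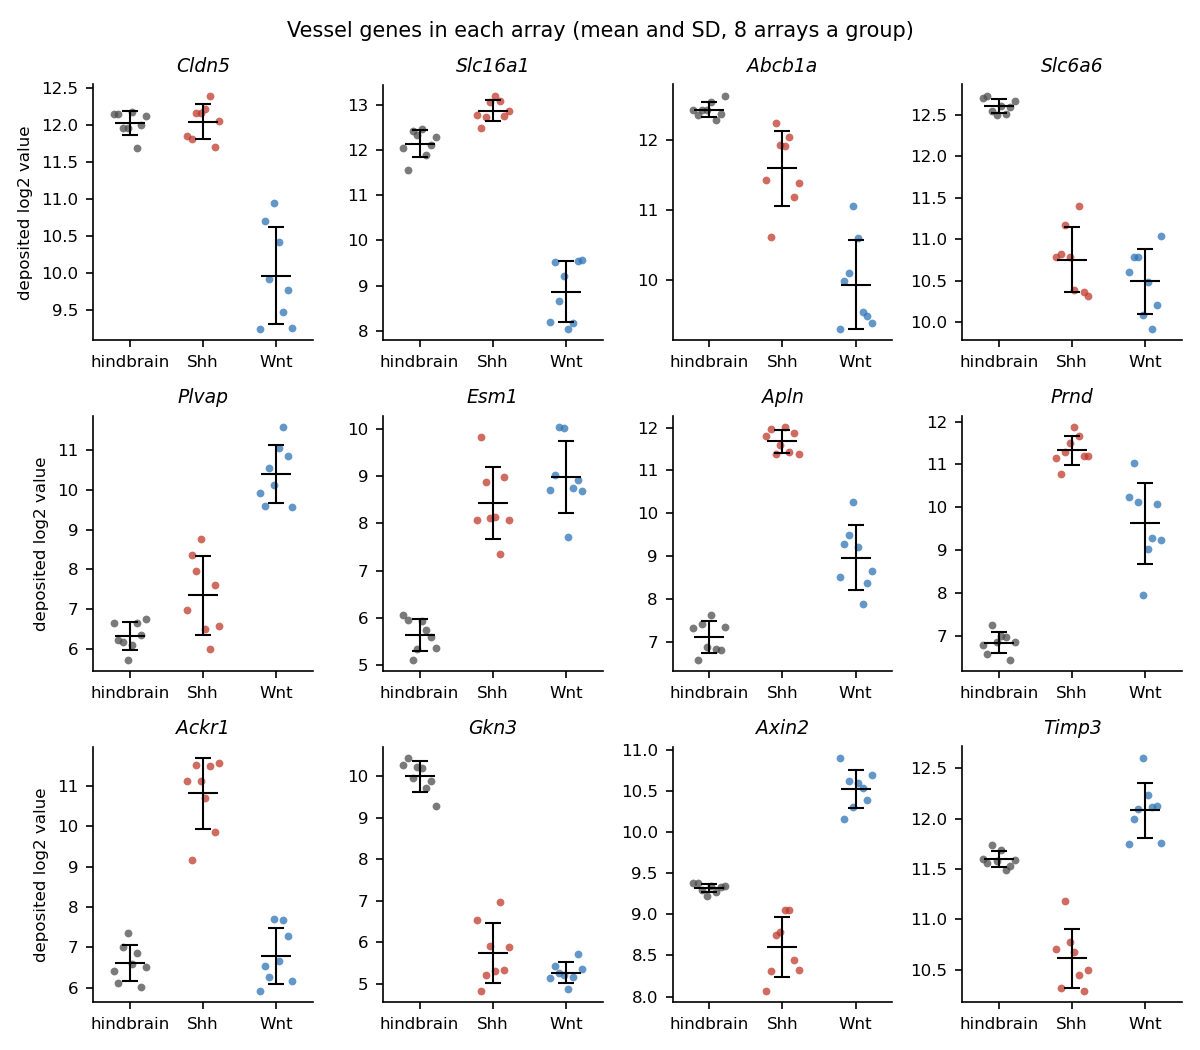
Deposited log2 values (vertical axis, a separate scale for each gene) of 12 vessel genes in the 8 hindbrain, 8 Shh and 8 Wnt arrays; points are arrays and bars the mean and SD. Cldn5 ran from 11.70 to 12.39 in Shh and 11.69 to 12.17 in hindbrain arrays, while Apln, Prnd and Ackr1 lay above every hindbrain array in every Shh array.

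Genes of tip cells, the leading cells of a growing vessel sprout, made up the list of vessel genes with the highest median. Of 20, 15 were higher and 3 lower, with a median of 1.67, and 14 of those higher had no overlap. Lists share members, so their counts are not separate results. Lamb1, Lama4, Nid1 and Nid2 are also in the basement membrane list, Aplnr in the venous list and Angpt2 in the VEGF and angiopoietin list. Apln, the secreted peptide apelin, was 6.59 to 7.63 (median 7.11) in hindbrain and 11.38 to 12.01 (median 11.71) in Shh arrays, a rise of 4.57 ± 0.15 (adjusted p = 4.56e-13). Its receptor Aplnr rose by 3.37 ± 0.15 (adjusted p = 4.63e-11). Prnd, a prion-related protein of developing brain vessels, was 6.44 to 7.25 (median 6.85) in hindbrain and 10.78 to 11.87 (median 11.24) in Shh arrays, a rise of 4.50 ± 0.14 (adjusted p = 3.39e-13). Every Shh array exceeded every hindbrain array for these genes by more than the whole range within either group.

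Further members of the list are signals and receptors. Angpt2, the angiopoietin that loosens vessels, rose by 2.68 ± 0.21 (adjusted p = 2.29e-08), the chemokine receptor Cxcr4 by 2.33 ± 0.15 (adjusted p = 3.16e-09) and the vasodilator peptide Adm by 1.58 ± 0.19 (adjusted p = 3.13e-06). Ramp3, a partner of the receptor for Adm, fell by 1.48 ± 0.10 (adjusted p = 5.22e-09) and was 7.90 to 8.61 (median 8.25) in hindbrain and 6.66 to 7.05 (median 6.76) in Shh arrays. The other members called lower were Unc5b and Pdgfb, each by less than 2-fold. Tip cell genes called higher numbered 10 with the precursor covariate and 14 with the microglia covariate. In the precursor fit the difference of Apln was 4.03 (adjusted p = 2.96e-05).

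Of 14 VEGF and angiopoietin ligands and receptors, 3 were called higher and 3 lower, shares near those of all genes. The calls were 2 higher and 1 lower in the precursor fit and 1 and 3 in the microglia fit. Vegfa, the main signal for vessel growth, was 7.95 to 8.71 (median 8.16) in hindbrain and 7.68 to 9.58 (median 8.35) in Shh arrays, a difference of 0.19 ± 0.23 with a 95% interval of -0.30 to 0.68, and in the precursor fit -1.71 (adjusted p = 0.0225). Its signalling receptor Kdr differed by 0.19 ± 0.091 (adjusted p = 0.0994), with a 95% interval of 0.003 to 0.39; after quantile normalization it was 0.26 (adjusted p = 0.0308). The decoy receptor Flt1 fell by 0.95 ± 0.11 (adjusted p = 2.35e-06) without overlap, the angiopoietin receptor Tek by 0.79 ± 0.17 (adjusted p = 0.00121) and the lymphatic growth factor Vegfc by 1.46 ± 0.15 (adjusted p = 4.7e-07). Pgf, a ligand of Flt1, rose by 0.72 ± 0.16 (adjusted p = 0.00181).

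Notch genes, which hold cells back from the tip position and support arterial identity, were mostly lower: 9 of 15 fell and 3 rose, with a median of -0.26. The target Hey2 was 9.04 to 9.96 (median 9.64) in hindbrain and 8.26 to 8.82 (median 8.57) in Shh arrays, a difference of -1.06 ± 0.13 (adjusted p = 6.43e-06). The ligand Jag2 fell by 1.02 ± 0.14 (adjusted p = 1.51e-05) and the glycosyltransferase Lfng by 0.92 ± 0.085 (adjusted p = 1.95e-07). The feedback inhibitor Nrarp rose by 0.68 ± 0.14 (adjusted p = 0.000711), with overlapping groups. The ligand Dll4 and the receptor Notch4 were the other members called higher, each by less than 2-fold. With array medians made equal, 1 member was called higher and 10 lower. Notch genes called were 0 higher and 1 lower in the precursor fit and 0 and 5 in the microglia fit.

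Arterial genes were among those most reduced. Of 13, 9 were lower and 1 higher, with a median of -0.52. Gkn3, a gene of brain arteries, was 9.28 to 10.43 (median 10.07) in hindbrain and 4.84 to 6.96 (median 5.61) in Shh arrays, a difference of -4.24 ± 0.26 (adjusted p = 1.43e-09). The kinase Bmx fell by 2.11 ± 0.21 (adjusted p = 4.32e-07) and the semaphorin Sema3g by 1.86 ± 0.19 (adjusted p = 5.09e-07). Mgp, an inhibitor of calcification, was the member called higher, by 0.64 ± 0.15 (adjusted p = 0.00198). Smooth muscle markers, the cells that wrap arteries, fell in the same arrays: 6 of 7, with list means of 8.76 to 9.55 in hindbrain and 7.24 to 7.75 in Shh arrays. Their part in the arterial result was not tested. Arterial genes called were 1 higher and 2 lower in the precursor fit and 0 and 4 in the microglia fit, and smooth muscle markers 0 higher and 4 lower in the precursor fit and 0 and 5 in the microglia fit.

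Venous genes and genes of leukocyte adhesion went the other way, with 7 of 12 higher and 1 lower, and a median of 1.15. Ackr1, a chemokine-binding receptor of venules, was 6.01 to 7.35 (median 6.54) in hindbrain and 9.16 to 11.56 (median 11.12) in Shh arrays, a rise of 4.21 ± 0.31 (adjusted p = 1.44e-08). Lcn2, a secreted protein that inflamed brain endothelium makes, rose by 3.02 ± 0.20 (adjusted p = 3.45e-09). The adhesion molecule Icam1 fell by 1.09 ± 0.27 (adjusted p = 0.00379), with overlapping groups. Nr2f2, also a member of the barrier transcription factors below, was not called. Aplnr and Slc38a5, whose rises are given above with other lists, are members of this list too. Members called higher numbered 3 with the microglia covariate and 6 with the precursor covariate. Klf4 and Klf2, transcription factors that blood flow induces, fell by 1.83 ± 0.17 (adjusted p = 1.97e-07) and by 0.97 ± 0.14 (adjusted p = 3.88e-05). The anticoagulant receptor Thbd fell by 1.07 ± 0.11 (adjusted p = 6.42e-07) and the clotting factor Vwf rose by 0.65 ± 0.12 (adjusted p = 0.000369), among 12 genes of coagulation and flow with 4 higher and 3 lower. For coagulation and flow the calls were 2 higher and 0 lower in the precursor fit and 0 and 4 in the microglia fit.

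Wnt receptors of brain endothelium and their partners were called lower in 3 of 9 cases and higher in 0. Reck, the membrane protein that lets endothelium respond to Wnt7 ligands, was 10.73 to 11.15 (median 11.04) in hindbrain and 8.65 to 10.07 (median 9.53) in Shh arrays, a difference of -1.46 ± 0.17 (adjusted p = 1.92e-06). The co-receptor Lrp5 fell by 0.39 ± 0.082 (adjusted p = 0.00112). Targets of beta-catenin divided, with 3 higher and 4 lower of 11. Axin2, a feedback inhibitor, was 9.22 to 9.37 (median 9.33) in hindbrain and 8.07 to 9.06 (median 8.59) in Shh arrays, a difference of -0.72 ± 0.12 (adjusted p = 0.00016). Notum, which inactivates Wnt ligands, fell by 2.26 ± 0.21 (adjusted p = 2.51e-07), Tnfrsf19 by 0.91 ± 0.20 (adjusted p = 0.00141) and the transcription factor Lef1 by 0.70 ± 0.13 (adjusted p = 0.000278). The largest of the 3 rises was that of Lgr5, at least 2-fold. Ccnd1, which encodes cyclin D1, rose by 0.87 ± 0.12 (adjusted p = 1.31e-05) and the feedback inhibitor Apcdd1 by 0.34 ± 0.095 (adjusted p = 0.00794). Apcdd1 was not called with array medians made equal (adjusted p = 0.0559). Axin2 and Lef1 differed by 0.036 (adjusted p = 0.962) and 0.28 (adjusted p = 0.562) in the precursor fit. In Wnt arrays Axin2 and Notum lay above every Shh array, and Shh minus Wnt was -1.93 ± 0.15 (adjusted p = 2.87e-08) for Axin2 and -4.51 ± 0.25 (adjusted p = 9.78e-10) for Notum. For the Wnt receptors the calls were 2 higher and 0 lower in the precursor fit and 1 and 2 in the microglia fit, and for the targets 1 higher and 1 lower in the precursor fit and 2 and 4 in the microglia fit.

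Of 9 transcription factors of the barrier, 1 was called higher and 2 lower, a share near that of all genes. The fit with the endothelial marker mean called 5 higher, and the calls were 1 higher and 0 lower in the precursor fit and 0 and 4 in the microglia fit. Foxq1 differed by -0.16 ± 0.14 (adjusted p = 0.401), with a 95% interval of -0.45 to 0.14. Its difference was -0.74 (adjusted p = 0.0393) in the microglia fit and 0.85 (adjusted p = 0.0927) in the precursor fit. Sox17, a factor that acts downstream of Wnt and in arteries, was 10.41 to 11.02 (median 10.79) in hindbrain and 9.27 to 10.48 (median 9.77) in Shh arrays, and fell by 0.95 ± 0.15 (adjusted p = 7.64e-05), while the nuclear receptor Ppard rose by 0.40 ± 0.10 (adjusted p = 0.00327).

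Secreted Wnt antagonists were higher in 7 of 12 cases and lower in 0, with a median of 0.83. Draxin, a guidance protein that also binds a Wnt co-receptor, was 5.65 to 6.40 (median 6.33) in hindbrain and 8.32 to 10.72 (median 9.46) in Shh arrays, a rise of 3.33 ± 0.26 (adjusted p = 3.11e-08). Sfrp1 rose by 3.13 ± 0.40 (adjusted p = 8.28e-06), with overlapping groups, and Frzb by 2.44 ± 0.21 (adjusted p = 6.3e-08). The mean of Frzb in hindbrain arrays was under the level of dim genes. Antagonists called were 1 higher and 1 lower in the precursor fit and 3 and 0 in the microglia fit, and Draxin differed by 0.86 (adjusted p = 0.18) in the former.

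Genes of the Hedgehog pathway, which is active in the tumour cells of this model, were higher in 7 of 13 cases and lower in 1. The transcription factor and pathway target Gli1 was 5.92 to 7.14 (median 6.32) in hindbrain and 6.95 to 9.39 (median 7.67) in Shh arrays, a rise of 1.55 ± 0.31 (adjusted p = 0.000614). Gli2 rose by 1.83 ± 0.28 (adjusted p = 4.83e-05) and the ligand-binding inhibitor Hhip by 2.01 ± 0.24 (adjusted p = 4.34e-06). The ligand Dhh fell by 0.50 ± 0.11 (adjusted p = 0.00164). Members called were 0 higher and 2 lower in the precursor fit and 5 and 0 in the microglia fit, and the difference of Gli1 became -1.21 (adjusted p = 0.145) in the former.

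BMP and TGF-beta genes were mostly lower, 13 of 20 against 4 higher, with a median of -0.58. The inhibitory Smads, which are feedback targets, fell: Smad7 was 9.70 to 10.52 (median 10.05) in hindbrain and 8.14 to 8.83 (median 8.33) in Shh arrays, a difference of -1.67 ± 0.13 (adjusted p = 3.13e-08), and Smad6 differed by -1.78 ± 0.18 (adjusted p = 4.62e-07). The receptor Tgfbr1 fell by 1.53 ± 0.18 (adjusted p = 2.7e-06). The signal-carrying Smads 1 and 5 rose, Smad1 by 1.08 ± 0.091 (adjusted p = 6.04e-08) and Smad5 by 0.72 ± 0.065 (adjusted p = 1.33e-07), as did the decoy receptor Bambi, by 1.24 ± 0.14 (adjusted p = 1.9e-06). None of these 6 genes had overlapping groups. Of this list 0 members were called lower with the precursor covariate and 8 with the microglia covariate.

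Matrix genes were mostly higher. Of 18 genes of the basement membrane, the sheet on which endothelium and pericytes lie, 13 were higher and 4 lower, with a median of 1.30. The laminin chain Lamb1 was 6.68 to 8.40 (median 7.58) in hindbrain and 10.60 to 11.61 (median 11.12) in Shh arrays, a rise of 3.50 ± 0.20 (adjusted p = 4.9e-10). The nidogens Nid1 and Nid2, which link laminin to collagen, rose by 1.79 ± 0.12 (adjusted p = 2.94e-09) and 1.73 ± 0.14 (adjusted p = 4.61e-08). The laminin chains Lamb2 and Lamc3 fell by 0.68 ± 0.13 (adjusted p = 0.00051) and 0.70 ± 0.16 (adjusted p = 0.00168), and Tinagl1, a glycoprotein of this sheet, fell by 2.51 ± 0.21 (adjusted p = 7.21e-08). Tinagl1 was 11.40 to 11.74 (median 11.65) in hindbrain and 8.36 to 10.12 (median 9.02) in Shh arrays. The chains Lamb1 and Lamb2, which take the same place in different laminins, thus moved in opposite directions. Lamb1, Lama4, Nid1 and Nid2 are counted in the tip cell list too.

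Interstitial matrix showed the same predominance, with 13 of 16 higher, 1 lower and a median of 1.47. Postn, the matricellular protein periostin, was 6.65 to 7.66 (median 7.12) in hindbrain and 9.98 to 10.87 (median 10.33) in Shh arrays, a rise of 3.28 ± 0.14 (adjusted p = 1.66e-11). The proteoglycan Vcan rose by 2.35 ± 0.29 (adjusted p = 4.29e-06) and the collagen chain Col6a1 by 2.10 ± 0.18 (adjusted p = 9.08e-08). Eln, the elastic fibre protein of arteries, fell by 1.0 ± 0.14 (adjusted p = 1.57e-05). Fibroblast markers were higher in 6 of 10 cases and lower in 1, with list means of 7.59 to 8.14 in hindbrain and 8.43 to 9.54 in Shh arrays; 3 of these markers are collagen genes that the interstitial list also holds. The part of fibroblasts was not tested. Col1a1 and Col3a1 rose by 2.09 ± 0.13 (adjusted p = 1.27e-09) and 1.97 ± 0.17 (adjusted p = 6.23e-08), the proteoglycan Lum by 2.09 ± 0.21 (adjusted p = 5.03e-07), and the proteoglycan Ogn fell by 1.65 ± 0.33 (adjusted p = 0.000591).

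Among 14 matrix proteases and inhibitors, 8 rose and 4 fell. The inhibitors Timp1 and Timp3 moved in opposite directions: Timp1 was 5.62 to 6.39 (median 5.98) in hindbrain and 8.81 to 10.71 (median 9.19) in Shh arrays, a rise of 3.48 ± 0.23 (adjusted p = 3.16e-09), and Timp3 differed by -0.98 ± 0.10 (adjusted p = 9.3e-07). The membrane-anchored protease Mmp25 rose by 1.81 ± 0.11 (adjusted p = 2.01e-09) and the secreted protease Adamts9 by 1.69 ± 0.15 (adjusted p = 1.42e-07), while Adamts1 fell by 0.92 ± 0.17 (adjusted p = 0.000266) and the plasminogen activator Plau by 1.64 ± 0.34 (adjusted p = 0.000796). Basement membrane genes called were 7 higher and 0 lower in the precursor fit and 10 and 3 in the microglia fit. For the interstitial matrix the calls were 9 higher and 0 lower in the precursor fit and 10 and 1 in the microglia fit, for proteases and inhibitors 4 higher and 0 lower in the precursor fit and 8 and 2 in the microglia fit, and for fibroblast markers 3 higher and 0 lower in the precursor fit and 4 and 0 in the microglia fit.

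**Figure D3:**
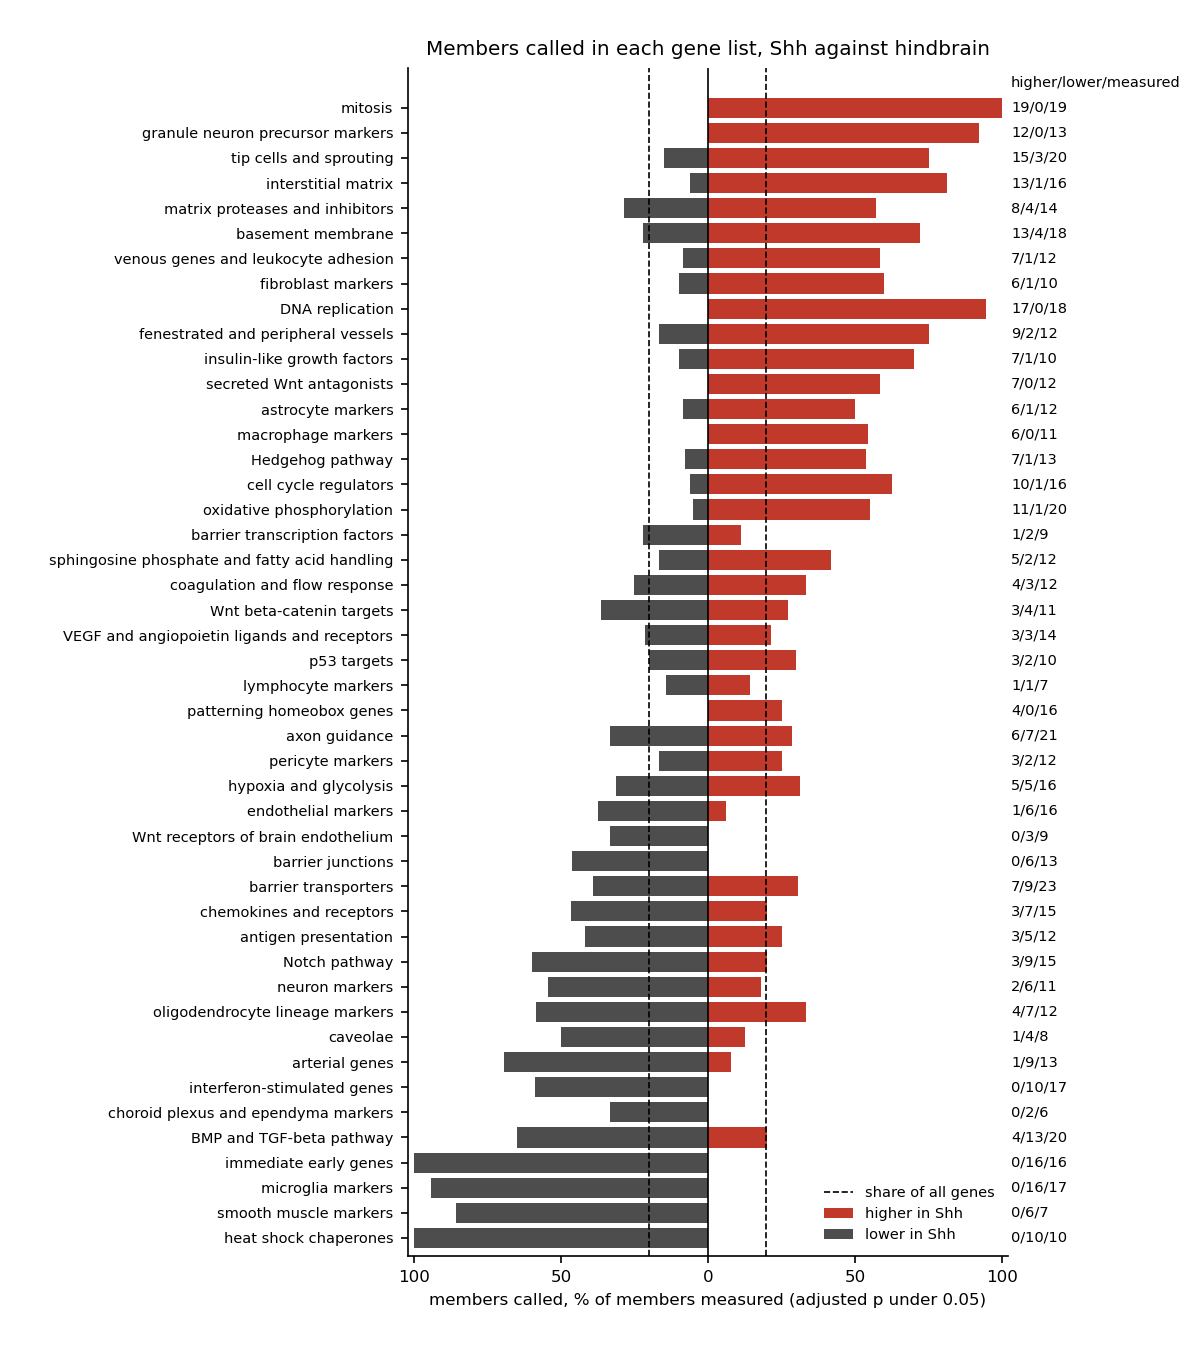
Share of the measured members of each list called higher (right) or lower (left) in Shh than in hindbrain arrays, in percent of the members, for the lists with 6 or more measured members, ordered by their median difference; dashed lines give the shares over all genes. All 19 mitosis genes were called higher, and all 16 immediate early genes and all 10 heat shock chaperones were called lower.

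Genes of cell division were higher with few exceptions. All 19 mitosis genes measured were called higher, with a median of 2.43 and no overlap in any of them, and 17 of 18 replication genes, with a median of 1.02. The promoters of Cdk1 and Mki67 are shown because mitosis genes moved together. They are the 250 bases before a RefSeq start (GRCm38.p6), on the strand of the gene. Capitals mark CCAAT boxes and the core of the cell cycle homology region, TTTGAA, on either strand. For a gene with several starts, here and below, the window with the most motif hits is printed. Counts of genes with a motif take a hit in any window. The window of Cdk1 is chr10:69352913-69353162 and that of Mki67 is chr7:135716380-135716629, both on the minus strand.
Cdk1: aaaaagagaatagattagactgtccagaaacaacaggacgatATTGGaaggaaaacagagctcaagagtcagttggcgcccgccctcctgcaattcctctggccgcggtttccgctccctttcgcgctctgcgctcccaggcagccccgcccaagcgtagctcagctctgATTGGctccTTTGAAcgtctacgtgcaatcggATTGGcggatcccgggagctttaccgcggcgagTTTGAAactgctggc
Mki67: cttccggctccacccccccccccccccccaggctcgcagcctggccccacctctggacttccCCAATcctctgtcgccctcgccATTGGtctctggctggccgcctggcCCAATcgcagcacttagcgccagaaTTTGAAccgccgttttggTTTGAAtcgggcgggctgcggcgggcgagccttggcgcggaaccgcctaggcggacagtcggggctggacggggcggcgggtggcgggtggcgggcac
Each of these windows holds both motifs more than once, and no hit of the first overlapped a hit of the second. Of the 15 mitosis genes with such a window, 13 held CCAAT and 7 held TTTGAA, against 37.5% and 18.3% of 27025 genes. A match describes letters and not a bound site.

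Cdk1, the kinase that starts mitosis, was 5.72 to 6.67 (median 6.33) in hindbrain and 9.15 to 10.43 (median 9.98) in Shh arrays, a rise of 3.63 ± 0.20 (adjusted p = 2.93e-10). Mki67, the proliferation antigen Ki-67, rose by 3.42 ± 0.23 (adjusted p = 4.27e-09), and its lowest Shh array exceeded its highest hindbrain array. Among replication genes Rrm2, a subunit of ribonucleotide reductase, rose by 2.30 ± 0.24 (adjusted p = 7.14e-07) and the helicase subunits Mcm6 and Mcm7 by 1.93 ± 0.27 (adjusted p = 1.93e-05) and 1.75 ± 0.19 (adjusted p = 9.2e-07). The array means of the mitosis list were highest in Shh replicates 7 (9.48) and 2 (9.38) and lowest in replicates 6 (7.92) and 3 (8.02). Replicates 7 and 2 also had the highest means of granule neuron precursor markers, 9.14 and 9.09, and replicate 3 the lowest, 7.36. The relation of these lists over arrays was not tested. Beside the precursor covariate 4 mitosis genes and 0 replication genes were called higher, and the difference of Cdk1 was 2.33 (adjusted p = 0.00424). Beside the microglia covariate the counts were 19 and 14.

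Regulators of the cell cycle rose in 10 of 16 cases and fell in 1. Cdk6, a partner of the D cyclins, rose by 1.52 ± 0.17 (adjusted p = 1.26e-06) and the transcription factor E2f1 by 1.42 ± 0.19 (adjusted p = 1.42e-05). The member that fell was Cdkn1c, an imprinted inhibitor of cyclin-dependent kinases, which was 7.62 to 8.09 (median 7.76) in hindbrain and 6.07 to 6.92 (median 6.44) in Shh arrays, a difference of -1.36 ± 0.13 (adjusted p = 2.8e-07). Of 10 p53 targets 3 rose and 2 fell, beside 19.8% and 20% of all genes. The receptor Eda2r led with a rise of 1.67 ± 0.17 (adjusted p = 7.07e-07). For the cell cycle regulators the calls were 1 higher and 0 lower in the precursor fit and 6 and 1 in the microglia fit, and Cdk6, E2f1 and Cdkn1c were not called in the former. For the p53 targets they were 1 higher and 0 lower in the precursor fit and 2 and 0 in the microglia fit.

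Markers of granule neuron precursors, the cells from which the tumour arises, were called higher in 12 of 13 cases. Atoh1, the transcription factor that defines them, was 5.43 to 6.03 (median 5.72) in hindbrain and 7.24 to 10.22 (median 8.55) in Shh arrays, a rise of 2.87 ± 0.33 (adjusted p = 2.56e-06). Nhlh1 and Nhlh2, transcription factors of young neurons, rose by 3.59 ± 0.33 (adjusted p = 1.93e-07) and 3.28 ± 0.27 (adjusted p = 4.09e-08), and Dcx, a microtubule protein of migrating neurons, by 3.54 ± 0.28 (adjusted p = 3.55e-08). In Wnt arrays the 4 genes had means of 5.63 ± 0.16, 4.78 ± 0.18, 5.14 ± 0.19 and 4.41 ± 0.19 (SD, n = 8). Markers of mature neurons were lower in 6 of 11 cases and higher in 2. The tubulin gene Tubb3 rose by 3.19 ± 0.30 (adjusted p = 2.19e-07), and Nefl, a neurofilament chain, fell by 0.81 ± 0.12 (adjusted p = 3.55e-05). Neuron markers called were 0 higher and 0 lower in the precursor fit and 1 and 4 in the microglia fit.

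Glial markers divided by lineage. Of 12 astrocyte markers 6 rose and 1 fell: the filament protein Gfap rose by 2.09 ± 0.30 (adjusted p = 2.28e-05) and the GABA carrier Slc6a11 by 2.07 ± 0.35 (adjusted p = 0.000134), and the receptor Fgfr3 fell by 1.19 ± 0.17 (adjusted p = 1.9e-05). Members of the oligodendrocyte lineage that fell included the myelin genes Mobp, which was 8.02 to 9.69 (median 8.20) in hindbrain and 5.54 to 6.65 (median 5.77) in Shh arrays, a difference of -2.57 ± 0.22 (adjusted p = 6.21e-08), and Mbp, with -1.88 ± 0.17 (adjusted p = 1.18e-07). Genes of oligodendrocyte precursors were among those that rose, Olig2 by 1.88 ± 0.39 (adjusted p = 0.000858) and Pdgfra by 1.90 ± 0.23 (adjusted p = 4.78e-06). In total 4 markers of this lineage rose and 7 fell of 12. Astrocyte markers called were 1 higher and 1 lower in the precursor fit and 2 and 1 in the microglia fit, and markers of the oligodendrocyte lineage 1 higher and 2 lower in the precursor fit and 3 and 3 in the microglia fit.

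Microglia markers fell and some macrophage markers rose. Of 17 microglia markers 16 were lower and 0 higher, with a median of -1.29. Siglech, a surface lectin of microglia, was 10.25 to 11.37 (median 10.81) in hindbrain and 5.65 to 6.65 (median 6.02) in Shh arrays, a difference of -4.83 ± 0.15 (adjusted p = 3.39e-13). P2ry12, the receptor through which microglia sense nucleotides, fell by 2.94 ± 0.35 (adjusted p = 3.84e-06) and Tmem119 by 2.69 ± 0.18 (adjusted p = 3.66e-09). Of 11 macrophage markers 6 were higher and 0 lower. Gpnmb, a glycoprotein of phagocytes with many lysosomes, was 5.97 to 7.10 (median 6.44) in hindbrain and 9.78 to 12.06 (median 11.23) in Shh arrays, a rise of 4.73 ± 0.29 (adjusted p = 1.43e-09). Ms4a7 rose by 2.77 ± 0.42 (adjusted p = 4.57e-05) and Ccr2, the chemokine receptor of monocytes, by 1.39 ± 0.27 (adjusted p = 0.000509). Macrophage markers called were 1 higher and 0 lower in the precursor fit and 8 and 0 in the microglia fit.

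Chemokine genes, which guide leukocytes, were lower more often than higher. Of 15 chemokines and receptors 7 were lower and 3 higher. Ccl4, which activated microglia secrete, was 9.60 to 11.65 (median 10.39) in hindbrain and 6.21 to 8.35 (median 7.47) in Shh arrays, a difference of -3.23 ± 0.33 (adjusted p = 7.07e-07). Ccl3 and Ccl12 fell by 2.10 ± 0.36 (adjusted p = 0.000182) and by 2.01 ± 0.27 (adjusted p = 1.28e-05). Cxcl9, a chemokine that interferon gamma induces, was higher in Shh arrays and varied widely among them, at 6.49 to 7.50 (median 6.83) in hindbrain and 7.10 to 11.61 (median 9.05) in Shh arrays, a rise of 2.43 ± 0.55 (adjusted p = 0.00171). Chemokine genes called were 1 higher and 3 lower in the precursor fit and 4 and 3 in the microglia fit, and the difference of Ccl4 was -1.34 (adjusted p = 0.0424) in the latter.

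Interferon-stimulated genes fell in 10 of 17 cases and rose in 0, with a median of -0.52. The promoters of Ifit1 and Rsad2, the members with the largest falls, are shown in the same form, with capitals for the interferon response element (GAAA, any 2 bases and GAAA again) on either strand. They are chr19:34640639-34640888 on the plus strand and chr12:26456453-26456702 on the minus strand.
Ifit1: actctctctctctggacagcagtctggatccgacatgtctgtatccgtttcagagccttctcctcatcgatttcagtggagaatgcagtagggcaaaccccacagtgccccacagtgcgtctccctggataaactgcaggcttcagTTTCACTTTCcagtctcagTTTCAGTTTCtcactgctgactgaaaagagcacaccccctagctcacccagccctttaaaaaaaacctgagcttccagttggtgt
Rsad2: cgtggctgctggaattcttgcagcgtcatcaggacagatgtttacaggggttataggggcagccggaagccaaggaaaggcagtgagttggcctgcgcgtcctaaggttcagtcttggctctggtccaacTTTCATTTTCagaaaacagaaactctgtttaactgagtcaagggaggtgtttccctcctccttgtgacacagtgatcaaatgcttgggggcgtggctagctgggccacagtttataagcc
The motif stands in 8 of the 13 interferon genes with a window and in 3.46% of 27025 genes. Ifit1, which binds viral RNA, was 9.37 to 10.20 (median 9.79) in hindbrain and 7.02 to 9.67 (median 8.07) in Shh arrays, a difference of -1.66 ± 0.29 (adjusted p = 0.00019) with overlapping groups. Rsad2, the antiviral enzyme viperin, fell by 1.46 ± 0.22 (adjusted p = 4.22e-05) without overlap. Class I genes of antigen presentation fell, H2-K1 by 0.62 ± 0.16 (adjusted p = 0.00529) and H2-T23 by 0.81 ± 0.20 (adjusted p = 0.00343), and the class II gene H2-Eb1 rose by 0.81 ± 0.25 (adjusted p = 0.0158). Such genes have near-identical relatives, so their probes may read more than 1 gene. Interferon genes called lower numbered 3 with the microglia covariate and 0 with the precursor covariate.

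Immediate early genes and heat shock chaperones, which cells switch on soon after many kinds of stimulus or stress, were lower in every measured case. All 16 immediate early genes were called lower, with a median of -1.02. Gadd45b, a stress-induced signalling protein, was 9.85 to 11.96 (median 10.90) in hindbrain and 8.89 to 9.56 (median 9.06) in Shh arrays, a difference of -1.94 ± 0.24 (adjusted p = 5.96e-06), and the transcription factors Egr2 and Egr3 fell by 1.76 ± 0.27 (adjusted p = 5.87e-05) and by 1.76 ± 0.27 (adjusted p = 6.31e-05). The array means of the list were 11.22 to 12.23 in hindbrain and 10.16 to 10.83 in Shh arrays.

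All 10 heat shock chaperones were called lower, with a median of -1.67. The promoter of Hspa1a is shown because Hspa1a and its copy Hspa1b had the largest falls of the list, with capitals for the heat shock element GAANNTTC, which reads the same on both strands. It is chr17:34972157-34972406 on the minus strand.
Hspa1a: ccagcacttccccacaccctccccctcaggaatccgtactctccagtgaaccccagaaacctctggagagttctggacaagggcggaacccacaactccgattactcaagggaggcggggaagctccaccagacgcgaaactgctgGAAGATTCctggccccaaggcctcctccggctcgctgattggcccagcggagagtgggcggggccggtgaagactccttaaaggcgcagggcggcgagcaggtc
The element stands in 5 of the 8 chaperone genes with a window and in 7.73% of 27025 genes. The window of Hspa1b is the same at 247 of 250 bases, and the genes are near-identical copies whose probes may read both. Hspa1a was 12.90 to 13.36 (median 13.20) in hindbrain and 8.10 to 11.41 (median 9.94) in Shh arrays, a difference of -3.23 ± 0.36 (adjusted p = 1.49e-06), and Hspa1b differed by -3.66 ± 0.47 (adjusted p = 7.94e-06). Hsph1, a partner of these chaperones, fell by 2.06 ± 0.23 (adjusted p = 1.32e-06). The microglia fit called 7 immediate early genes and 6 chaperones lower, and the precursor fit 3 and 4.

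**Figure D4:**
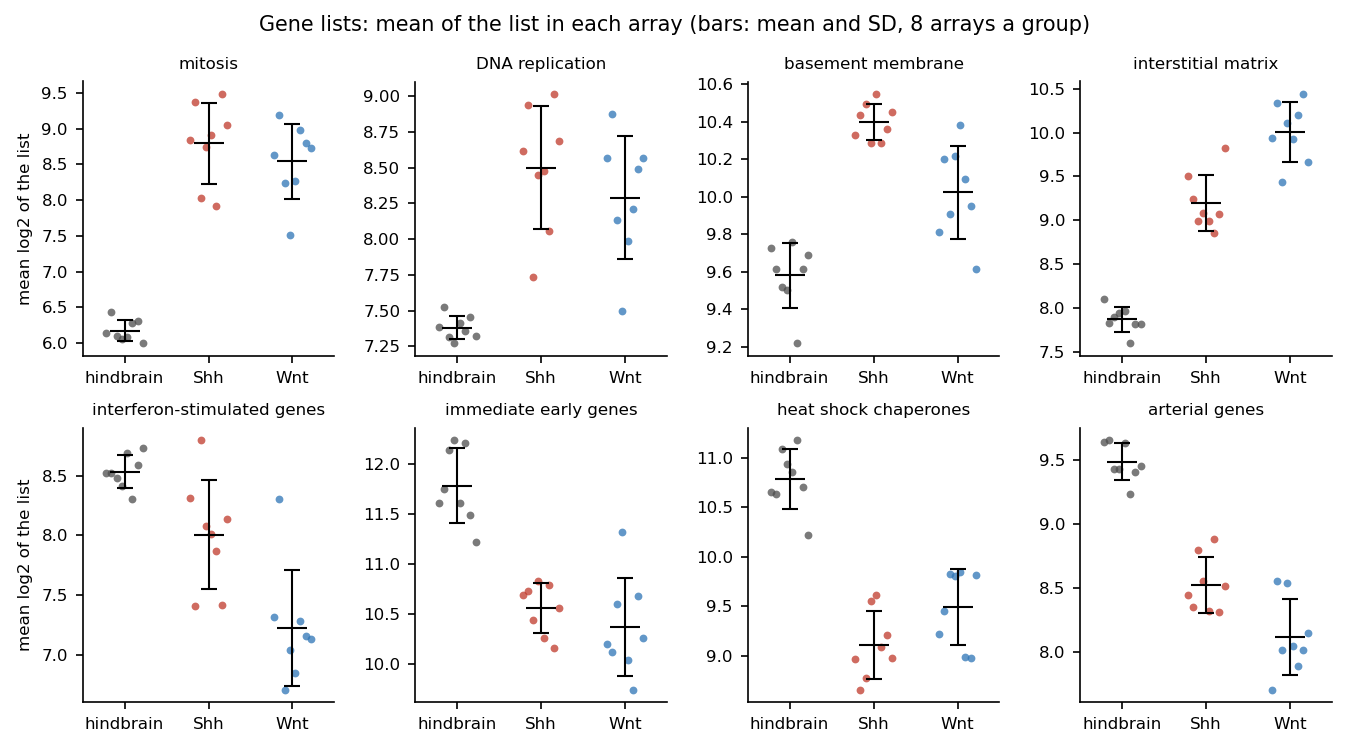
Mean deposited log2 value of 8 gene lists in each array (vertical axis) for the 8 hindbrain, 8 Shh and 8 Wnt arrays; points are arrays and bars the mean and SD. The means of immediate early genes lay at 10.16 to 10.83 in Shh and 11.22 to 12.23 in hindbrain arrays, and interferon-stimulated genes overlapped between these groups.

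Among cells of the vessel wall, smooth muscle markers fell and pericyte markers were called in both directions, in a share near that of all genes. Pln, phospholamban, a regulator of the calcium pump, was 8.77 to 9.73 (median 9.20) in hindbrain and 5.19 to 6.13 (median 5.73) in Shh arrays, a difference of -3.53 ± 0.13 (adjusted p = 2.98e-12). Myh11, smooth muscle myosin, fell by 2.65 ± 0.11 (adjusted p = 1.68e-11) and Tagln by 1.67 ± 0.17 (adjusted p = 5.68e-07). Of 12 pericyte markers 3 rose and 2 fell, with a median list mean of 9.87 in hindbrain and 9.83 in Shh arrays and overlapping groups. The channel subunit Kcnj8 rose by 0.65 ± 0.21 (adjusted p = 0.0195) and Higd1b fell by 0.56 ± 0.17 (adjusted p = 0.0144), both with overlapping groups. Pericyte markers called were 0 higher and 0 lower in the precursor fit and 0 and 1 in the microglia fit.

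Growth factor, guidance and metabolic genes showed both directions. Of 10 genes of the insulin-like growth factors 7 rose and 1 fell. Igf1 was 6.17 to 6.99 (median 6.55) in hindbrain and 7.07 to 10.39 (median 9.15) in Shh arrays, a rise of 2.40 ± 0.36 (adjusted p = 4.02e-05), and the binding protein Igfbp3 rose by 2.59 ± 0.23 (adjusted p = 9.45e-08), while the receptor Igf1r fell by 0.47 ± 0.14 (adjusted p = 0.0116). Axon guidance genes divided, with 6 higher and 7 lower of 21. The Slit receptor Robo1 was 5.90 to 6.65 (median 6.47) in hindbrain and 8.88 to 10.29 (median 9.48) in Shh arrays, a rise of 3.16 ± 0.21 (adjusted p = 3.89e-09), and Robo2 rose by 1.84 ± 0.22 (adjusted p = 3.44e-06). Semaphorins went both ways: Sema3e rose by 1.80 ± 0.25 (adjusted p = 1.55e-05), Sema3c fell by 1.54 ± 0.30 (adjusted p = 0.000579), and the netrin Ntn4 fell by 1.90 ± 0.16 (adjusted p = 6.85e-08). For the insulin-like growth factors the calls were 1 higher and 0 lower in the precursor fit and 5 and 1 in the microglia fit, and for axon guidance 4 higher and 3 lower in the precursor fit and 5 and 5 in the microglia fit.

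Sgpp2, a phosphatase that removes sphingosine phosphate, was 11.40 to 11.92 (median 11.68) in hindbrain and 8.32 to 9.40 (median 8.66) in Shh arrays, a difference of -2.93 ± 0.15 (adjusted p = 1.74e-10). Fabp5, a fatty acid binding protein, was 5.88 to 6.59 (median 6.15) in hindbrain and 8.61 to 10.71 (median 9.84) in Shh arrays, a rise of 3.49 ± 0.23 (adjusted p = 3.66e-09). Both differed without overlap, within a list of 12 with 5 higher and 2 lower, the last count becoming 4 with array medians made equal. Hypoxia and glycolysis genes moved in both directions, with 5 higher and 5 lower of 16. The hypoxia target Ndrg1, which myelinating cells also express, fell by 2.44 ± 0.18 (adjusted p = 1.03e-08), the glycolytic regulator Pfkfb3 fell by 1.27 ± 0.20 (adjusted p = 6.49e-05) and the phosphofructokinase Pfkp rose by 0.74 ± 0.13 (adjusted p = 0.000146). Genes of oxidative phosphorylation rose in 11 of 20 cases by small amounts, with a median of 0.21, and in 6 with array medians made equal. Cox5a, a subunit of cytochrome oxidase, was 8.16 to 8.62 (median 8.49) in hindbrain and 8.74 to 8.93 (median 8.86) in Shh arrays, a rise of 0.40 ± 0.065 (adjusted p = 9.65e-05). Of 16 patterning homeobox genes 4 rose and 0 fell, beside 19.8% and 20% of all genes, and 5 were dim in Shh arrays. Meis1 led with a rise of 2.35 ± 0.25 (adjusted p = 8.41e-07). For oxidative phosphorylation the calls were 0 higher and 0 lower in the precursor fit and 0 and 0 in the microglia fit, and for hypoxia and glycolysis 0 higher and 1 lower in the precursor fit and 3 and 2 in the microglia fit. The sphingosine phosphate and fatty acid list had 1 higher and 1 lower in the precursor fit and 2 and 1 in the microglia fit, and the homeobox list 0 higher and 0 lower in the precursor fit and 1 and 0 in the microglia fit.

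The largest rises over the whole array included histone genes and genes outside the lists. The linker histone H1f5 was 3.67 to 4.82 (median 4.28) in hindbrain and 8.56 to 10.76 (median 9.60) in Shh arrays, a rise of 5.38 ± 0.27 (adjusted p = 1.35e-10), and the histone H2bc12 rose by 4.27 ± 0.29 (adjusted p = 4.3e-09). Histone genes have near-identical copies, so the gene read by a probe is uncertain. The secreted protein Scgb3a1 rose by 4.14 ± 0.21 (adjusted p = 1.89e-10), the netrin receptor Dcc by 3.68 ± 0.28 (adjusted p = 2.16e-08) and the metalloreductase Steap4 by 3.50 ± 0.21 (adjusted p = 1.29e-09). The largest falls included Slc2a5, a fructose carrier of microglia, which was 8.73 to 10.65 (median 9.47) in hindbrain and 4.85 to 5.39 (median 5.15) in Shh arrays, a difference of -4.30 ± 0.22 (adjusted p = 2.07e-10). The cytokines Il1a and Tnf fell by 3.78 ± 0.46 (adjusted p = 3.99e-06) and by 3.50 ± 0.38 (adjusted p = 1.33e-06), and the inflammasome sensor Nlrp3 by 3.31 ± 0.34 (adjusted p = 7.31e-07). Genes that brain endothelium expresses stood among them too: the phosphatase Alpl was 10.71 to 11.07 (median 10.90) in hindbrain and 6.57 to 8.38 (median 7.25) in Shh arrays, a difference of -3.56 ± 0.18 (adjusted p = 1.35e-10). The anion exchanger family member Slc26a10 fell by 3.73 ± 0.11 (adjusted p = 3.39e-13). Dcc was not called in the precursor fit, and Il1a and Tnf were not called in the microglia fit. The other genes named in this paragraph kept their calls in both fits.

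To find where the Shh vessels stood apart from both other groups, genes were taken that were called in the same direction against hindbrain and against Wnt arrays with no overlap with either. Shh minus Wnt alone called 3553 genes higher (16%) and 3627 lower (16.4%). The combined rule left 238 genes highest in Shh (1.07%) and 124 lowest (0.559%). The 2 differences share the Shh arrays, so they are not independent.

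The highest genes held a venule gene beside genes of granule neuron precursors. Atp6v0d2, a subunit of the proton pump of lysosomes, was 5.74 to 10.45 (median 8.79) in Shh, 3.55 to 4.26 (median 3.85) in hindbrain and 3.58 to 4.63 (median 4.22) in Wnt arrays, and Shh minus Wnt was 4.38 ± 0.49 (adjusted p = 3.14e-06). Ackr1, the venule receptor, was 5.92 to 7.69 (median 6.6) in Wnt arrays, and Shh minus Wnt was 4.04 ± 0.36 (adjusted p = 1.98e-07). The eotaxin gene Ccl11 was 9.75 to 11.50 (median 10.72) in Shh, 7.11 to 7.81 (median 7.43) in hindbrain and 6.25 to 8.47 (median 6.78) in Wnt arrays, with a Shh minus Wnt difference of 3.85 ± 0.29 (adjusted p = 3.54e-08). The metabolic enzyme Fbp1 exceeded hindbrain by 3.24 ± 0.13 (adjusted p = 8.14e-12) and Wnt by 2.91 ± 0.12 (adjusted p = 5.58e-11). Beside these stood Nhlh1, Nhlh2 and Dcx, named above, the long noncoding RNA Miat, the calcium channel subunit Cacna1e and the neuronal protein Crmp1. Further down the same list came Apln, with a Shh minus Wnt difference of 2.72 ± 0.26 (adjusted p = 4.52e-07), and Slc16a1, with 4.01 ± 0.23 (adjusted p = 1.42e-09). Slc16a1 was 8.86 ± 0.67 (SD, n = 8) in Wnt arrays and fell there against hindbrain, with a Wnt minus hindbrain difference of -3.29 ± 0.24 (adjusted p = 3.94e-09), a comparison that called 23% of all genes higher and 22.2% lower.

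**Figure D5:**
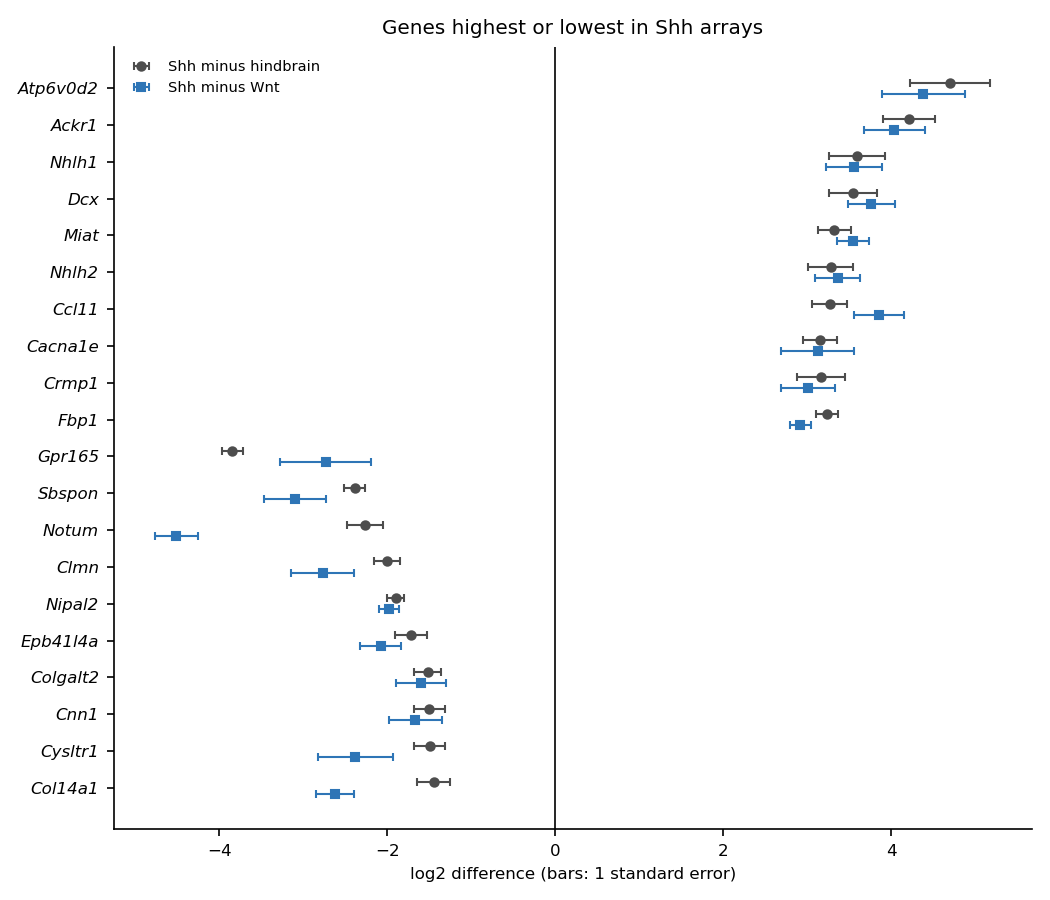
Log2 differences of the 10 genes highest and the 10 genes lowest in Shh arrays against both other groups (horizontal axis), with 1 standard error; circles are Shh minus hindbrain and squares Shh minus Wnt, 8 arrays a group. Atp6v0d2 led the rises and Gpr165 the falls, and Notum differed by -2.26 ± 0.21 from hindbrain and by -4.51 ± 0.25 (adjusted p = 9.78e-10) from Wnt arrays.

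The lowest genes included the orphan receptor Gpr165, which was 4.75 to 5.19 (median 4.98) in Shh, 8.39 to 9.26 (median 8.78) in hindbrain and 5.74 to 10.79 (median 7.78) in Wnt arrays, with differences of -3.85 ± 0.12 (adjusted p = 3.68e-13) from hindbrain and -2.73 ± 0.54 (adjusted p = 0.000775) from Wnt arrays. Sbspon, a secreted matrix protein, fell by 2.39 ± 0.12 (adjusted p = 1.65e-10) against hindbrain, and Shh minus Wnt was -3.10 ± 0.37 (adjusted p = 5.64e-06). Notum, Axin2 and Tnfrsf19, all targets of beta-catenin, were lowest in Shh and highest in Wnt arrays, with Wnt minus hindbrain differences of 2.25 ± 0.16 (adjusted p = 3.37e-09), 1.21 ± 0.087 (adjusted p = 3.55e-09) and 1.48 ± 0.084 (adjusted p = 2.22e-10). Timp3 and Eln showed the same order, with Shh minus Wnt differences of -1.47 ± 0.14 (adjusted p = 2.93e-07) and -2.75 ± 0.21 (adjusted p = 4.28e-08), and Wnt minus hindbrain differences of 0.49 ± 0.10 (adjusted p = 0.00056) and 1.75 ± 0.22 (adjusted p = 3.87e-06). The smooth muscle gene Cnn1 and the collagen gene Col14a1 also belonged to the 10 lowest, with Shh minus Wnt differences of -1.66 ± 0.31 (adjusted p = 0.000515) and -2.62 ± 0.23 (adjusted p = 1.42e-07).

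Barrier genes were mostly higher in Shh than in Wnt arrays: 21 of 23 transporters with 0 lower, 8 of 13 junction genes with 3 lower, and 7 of 9 transcription factors with 0 lower. Cldn5 was 9.24 to 10.95 (median 9.84) in Wnt arrays, all below the Shh arrays, and Shh minus Wnt was 2.08 ± 0.23 (adjusted p = 2.28e-06). Foxq1 exceeded the Wnt level by 3.23 ± 0.23 (adjusted p = 1.89e-08), Mfsd2a by 3.19 ± 0.41 (adjusted p = 1.23e-05) and Slc2a1 by 1.21 ± 0.23 (adjusted p = 0.000454). The mean of the endothelial markers was 9.74 to 10.99 in Wnt arrays against 11.15 to 11.64 in Shh arrays, and its part in these differences was not tested. Of 20 tip cell and sprouting genes 14 were higher in Shh than in Wnt arrays and 2 lower, and of 18 basement membrane genes 9 and 1. Caveolae genes were higher in 1 of 8 cases and lower in 2, and genes of fenestrated and peripheral vessels in 0 and 6 of 12. Cav1 differed between the tumour groups by 0.35 ± 0.18 (adjusted p = 0.16), Esm1 of the fenestrated list by -0.55 ± 0.35 (adjusted p = 0.252) and Lamb1 by 0.36 ± 0.13 (adjusted p = 0.0451).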

How the data were processed

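RNA of cells sorted with antibodies to Cd105 and Cd144 was labelled with biotin and hybridised to an Affymetrix mouse array, per the labels' protocols. The authors deposited 1 table of log2 values for 41345 probe sets on 24 arrays. Partek 6.6 is named, without a role, in the submitters' processing notes, and which background correction, summary of probes and scaling were applied is not given in the sources used here. Any of these steps can shift a difference. The deposited log2 values were used as they stand.

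Gene names come from GEO's platform annotation: 23521 probe sets carried exactly 1 symbol, 1814 several, 15820 none, and 190 were controls. Of each gene's probe sets the brightest over 24 arrays was kept, leaving 22180 genes. The functions lmFit and eBayes of limma 3.58.1 (R 4.3.3), with no trend, were run on 8 against 8 arrays, with 14 residual degrees of freedom, Benjamini-Hochberg adjustment over all genes and a threshold of 0.05, two-sided. Shh minus Wnt and Wnt minus hindbrain were fitted in the same way. On simulated data for Shh minus hindbrain, with 22180 genes, the fit recovered 38, 48, 49 and 50 of 50 genes shifted by 0.5, 1, 1.5 and 2 log2 units and called 11 unshifted genes. The number of arrays limits the precision, and p-values measure the spread between arrays whose animals the labels do not describe further.

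The comparison, its 47 gene lists, 13 of them cell type markers (of 628 genes 589 were matched), and the rule for named genes were chosen with earlier results of these data known. The rule names the 15 largest rises and the 15 largest falls without overlap, up to 3 called members in each direction of every list (with none called, the 2 with the smallest p), 17 fixed genes, and the 10 highest and 10 lowest genes in Shh against both other groups. The text leaves out some of them. Of 7 lymphocyte markers 1 was higher and 1 lower, of 6 choroid plexus markers 0 and 2, and of 12 antigen presentation genes 3 and 5; the 1 red cell marker measured was lower. Promoter sequences are from RefSeq, GRCm38.p6. Alternatives were quantile normalization, equal array medians, other choices of probe set, a filter on dim genes, array weights, a trend of the variance, all 24 arrays in 1 fit, the replicate number as a block, 3 marker covariates and leaving out each array.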

Additional observations from a re-analysis of the deposited data

Results flagged for a closer look

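For the genes named and the marker lists, 390 groups of 8 arrays were looked at for a single array far from the others, where the gap to its nearest neighbour took over 0.526 of the group's range. Chance flags about 1 in 20 groups, and 26 were found (6.67%). Hindbrain replicate 6 accounted for 10 of them. Hindbrain replicate 8 was the highest of its group for Steap4 (7.23), Vegfc (9.39), Nid2 (8.87), Slc6a11 (9.13) and Col14a1 (8.48). Shh replicate 2 was the highest of its group for Siglech (6.65), Cxcr4 (11.66) and Nid2 (11.03). Shh replicate 2 was the lowest of its group for Tnfrsf19 (9.02) and Lcn2 (9.09). Hindbrain replicate 6 was the lowest of its group for Lrp8 (9.95), Cavin3 (10.08), Smad5 (7.70), Nid1 (10.10), Lamc3 (8.94), Igf1r (11.51), Kcnj8 (8.65), Col1a1 (7.08), Cldn5 (11.69) and endothelial markers (11.33). Hindbrain replicate 1 was the highest of its group for Col6a1 (8.33). Shh replicate 3 was the lowest of its group for Tubb3 (7.03), Mbp (6.6) and neuron markers (5.68). Hindbrain replicate 7 was the highest of its group for Mobp (9.69). Shh replicate 8 was the highest of its group for Col3a1 (9.73). Values in parentheses are log2, for the lists the mean of the markers. Calls of these genes held when that array was left out.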

How the results depend on the processing

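Counts of calls for Shh minus hindbrain fell by more than 1.5 times under the 2 covariates for other cells: with the microglia mean 1843 genes were called higher and 1696 lower, and with the granule neuron precursor mean 818 and 587. Both means differ between the groups without overlap, so these fits extend the trend within the groups across a gap that no array fills. Of 176 called genes named in the text, 175 kept their call whichever array was left out, Slc2a1 being the exception, and 56 kept it under every alternative run. Log2 differences that changed sign with the precursor mean and were called with it or without it were Tek 0.67, Abcc4 0.38, Ocln 0.57, Jag2 0.0055, Lrp5 0.072, Tnfrsf19 0.48, Axin2 0.036, Sox17 0.42, Sfrp1 -0.43, Gli2 -0.51, Gli1 -1.21, Dhh 0.067, Ifit1 0.61, Rsad2 0.15, H2-T23 0.20, H2-K1 0.046, Mcm7 -0.033, E2f1 -0.10, Lamb2 0.37, Klf2 0.20, Igf1r 0.65, Sema3c 0.94, Meis1 -0.017, Olig2 -1.14, Kcnj8 -0.20, Cdkn2c -0.26, Slc2a1 0.32, Abcb1a 0.77, Lef1 0.28, Vegfa -1.71 and Atoh1 -0.19; of these only that of Vegfa was called. With the microglia mean they were Cd300lg 0.10, Apcdd1 -0.033, Ccl3 0.26 and Plau 0.029, none called. Of named genes called neither without a covariate nor with it, Eng 0.34 and Foxq1 0.85 changed sign with the precursor mean, Cdh5 -0.14, Ptch1 0.048, Cldn5 -0.38 and Kdr -0.12 with the microglia mean, and Foxq1 0.069 and Vegfa -0.11 with the endothelial marker mean. The cause was not tested. Leaving out each array of the groups compared gave 4037 to 4399 genes higher and 4024 to 4455 lower than hindbrain. Against Wnt it gave 3203 to 3574 higher and 3338 to 3751 lower. With each Shh or Wnt array left out, but no hindbrain array, 240 to 338 genes lay above and 125 to 154 below both groups. These ranges lie above the full counts of 238 and 124. Fewer arrays ease the rule of no overlap, so the ranges do not measure stability.

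No pairing of the samples by replicate number was seen. Same-numbered arrays had correlations of -0.086 to 0.14 of their deviations, and 0 of 8 Shh arrays correlated best with their own number. The check cannot exclude a pairing, because other differences between arrays can hide a shared effect. With the replicate number as a block 4191 genes were called higher and 4120 lower, and of the genes named only Slc2a1 lost its call. No signal over background is held in the values used here, so dim genes are judged only against the ERCC control probe sets.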
